A study of Mus musculus with 4 samples.

Results

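The 8 genes described here set or record the choice between the CD4 and CD8 lineages of T cells. They are *Cd4*, *Cd8a* and *Cd8b1*, which encode the coreceptors, *Zbtb7b*, which encodes the CD4-lineage factor ThPOK, *Runx1*, *Runx2* and *Runx3*, which encode the DNA-binding RUNX factors, and *Cbfb*, which encodes their shared partner CBFβ. Every ATAC-seq peak called in any library that overlapped the body of one of these genes or the 20 kb on either side was taken, with *Cd8a* and *Cd8b1* as 1 cluster and GENCODE M21 gene models on GRCm38 (mm10). Peaks overlapping by at least 1 bp were merged, which gave 97 regions of the 272233 in the whole data set.

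The chromatin came from Foxp3-RFP+ Treg cells sorted from the lymph nodes (LNs) of female C57BL/6 mice of 6 to 8 weeks, with 50000 cells per library and 2 libraries each of WT and *Il2ra* mut/mut mice. The mutant mice carry, in all their cells and not in Treg cells alone, a spontaneous point mutation in CD25, the IL-2 receptor α chain. This mutation lowers CD25 at the cell surface and the response to IL-2 in Treg and conventional T cells, as the authors reported. It arose in a *Ccr2*-deficient line and was crossed back to a *Ccr2*+/+ background, and mice of both genotypes carry the *Foxp3* Rfp reporter. The comparison asks whether the accessibility of these loci differs between Treg cells that receive normal and reduced IL-2 signals.

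RUNX proteins bind DNA as a pair with CBFβ and act as repressors or activators. In the CD8 lineage they act on a silencer within the first intron of *Cd4* and repress *Zbtb7b*, whereas in the CD4 lineage ThPOK opposes RUNX and the CD8 programme. Mature Treg cells belong to the CD4 lineage, and RUNX1 with CBFβ is known to associate with Foxp3 in these cells. *Runx1*, *Runx2* and *Runx3* each have a distal and a proximal promoter.

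Sequences of 300 bases around the summit (the position of highest signal) of the best-ranked peak are given for 4 regions on which the results turn: the strongest region inside *Cd4*, the only called start site of the *Cd8* cluster, the region of *Runx1* with the lowest unadjusted p of the set, and the distal start of *Runx3*. They were read from the GRCm38 reference, plus strand, 5′ to 3′, and capitals mark the RUNX core word TGTGGT or its reverse complement ACCACA.
Cd4 region 6, chr6:124885196-124885495: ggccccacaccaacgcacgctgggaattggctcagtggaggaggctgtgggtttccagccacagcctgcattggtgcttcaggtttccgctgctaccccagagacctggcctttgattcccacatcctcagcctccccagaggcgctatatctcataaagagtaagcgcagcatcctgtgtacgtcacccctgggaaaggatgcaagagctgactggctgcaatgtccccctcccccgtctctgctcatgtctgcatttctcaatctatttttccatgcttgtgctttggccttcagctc
Cd8b1 start region, chr6:71322451-71322750: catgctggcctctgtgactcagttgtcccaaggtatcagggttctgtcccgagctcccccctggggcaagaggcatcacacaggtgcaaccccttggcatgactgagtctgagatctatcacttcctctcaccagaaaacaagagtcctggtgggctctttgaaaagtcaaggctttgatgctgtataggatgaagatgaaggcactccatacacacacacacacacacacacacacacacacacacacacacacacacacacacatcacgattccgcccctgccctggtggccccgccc
Runx1 region 27, chr16:92821779-92822078: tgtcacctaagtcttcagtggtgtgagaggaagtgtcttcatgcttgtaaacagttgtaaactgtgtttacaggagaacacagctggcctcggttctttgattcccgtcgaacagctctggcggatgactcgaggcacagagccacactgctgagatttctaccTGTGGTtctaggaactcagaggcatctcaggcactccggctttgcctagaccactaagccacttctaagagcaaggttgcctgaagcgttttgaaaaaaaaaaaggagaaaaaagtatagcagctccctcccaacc
Runx3 distal start, chr4:135120318-135120617: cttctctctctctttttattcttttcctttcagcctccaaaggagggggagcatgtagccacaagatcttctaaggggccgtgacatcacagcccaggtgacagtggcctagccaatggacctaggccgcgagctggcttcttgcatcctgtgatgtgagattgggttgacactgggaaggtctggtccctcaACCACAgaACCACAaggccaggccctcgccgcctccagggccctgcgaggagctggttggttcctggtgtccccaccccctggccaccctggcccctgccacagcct
The *Runx3* window held 2 RUNX words in tandem, 2 bases apart, and the *Runx1* window held 1. The *Cd4* and *Cd8b1* windows held neither of these exact letters. Regions are numbered along the chromosome within each locus.

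The lists of the 4 libraries held between 112569 and 142732 peaks. They give no library totals, so the depth is unknown. In 100% of peaks the authors' fold enrichment could be turned back into whole reads under the summit. This used 1 constant background per library solved for from the list, and a tolerance of 0.001 reads per unit of fold enrichment. These summit reads are given below as a guide to precision: the weakest peaks rested on 5 or 6 reads and the median peak on 8 to 10. The other measure used is the percentile of a peak's −log10 p among all peaks of its own library, which ranks peaks within a library. Within a library each fold enrichment went with a single −log10 p, so fold, summit reads and percentile order its peaks alike and are not separate evidence. For a check of the sorted cells, all 6 Treg marker genes, *Foxp3* and *Il2ra* among them, had a promoter peak in all libraries, as did 6 of 7 T cell markers. None of 6 myeloid markers and 1 of 6 B cell markers did, that one being *Ebf1*. Of all protein-coding genes, 51.6% did and 35.8% had no promoter peak in any library. Of the myeloid markers, 0 to 2 had a promoter peak in a given library, and of the B cell markers 1 or 2. The myeloid marker *Cebpa* had one in WT replicate 2 and both mutant libraries, at percentiles 81.0, 86.2 and 88.8, whereas 4 myeloid markers had none. Of 5 NK cell markers 1 had one in all libraries, *Prf1*, and 3 had none. Fewer cells with an open site and less opening per cell cannot be told apart in such bulk libraries.

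The loci differed widely in how many regions were called. Of the 97 regions, 50 were called in all 4 libraries, 51.5% against 14.1% of all regions, and 26 were called in 1 library only, 26.8% against 61.3%. The regions called in all libraries were of ordinary strength, with a median percentile of 82.9 (43.2 to 98.8) against 82.8 over all such regions, and a median width of 799.5 bp against 760.0 bp. *Zbtb7b* had 8 of its 13 regions in all libraries, 14.0 per 100 kb of window, which stood at percentile 98.1 among protein-coding genes. *Cd4* followed with 8 of 12 regions and 12.6 per 100 kb (percentile 97.1), and *Runx3* with 9 of 17 and 9.25 per 100 kb (percentile 92.5). *Runx1* held the most regions, 30 with 15 in all libraries, spread over a window of 264.7 kb (5.67 per 100 kb, percentile 79.8). *Cbfb* had 2 of 3 regions in all libraries (2.29 per 100 kb, percentile 52.3), *Runx2* 7 of 20 (1.95 per 100 kb, percentile 46.3), and the *Cd8a* and *Cd8b1* cluster 1 of 2 (1.04 per 100 kb, percentile 33.5). The median protein-coding gene had 2.16 per 100 kb, and 28.2% of gene windows had none. Windows that include neighbouring genes count their regions too, as described below. Of the 8 *Cd4* regions in all libraries, only regions 6 and 8 lie in the gene or over its start. Regions 1 and 2 lie in *P3h3*, region 4 covers the start of *Gpr162* and region 12 lies in *Lag3*. Regions 9 and 11 are intergenic. The density at *Cd4* is thus that of the window and not of the gene alone.

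**Figure D1:**
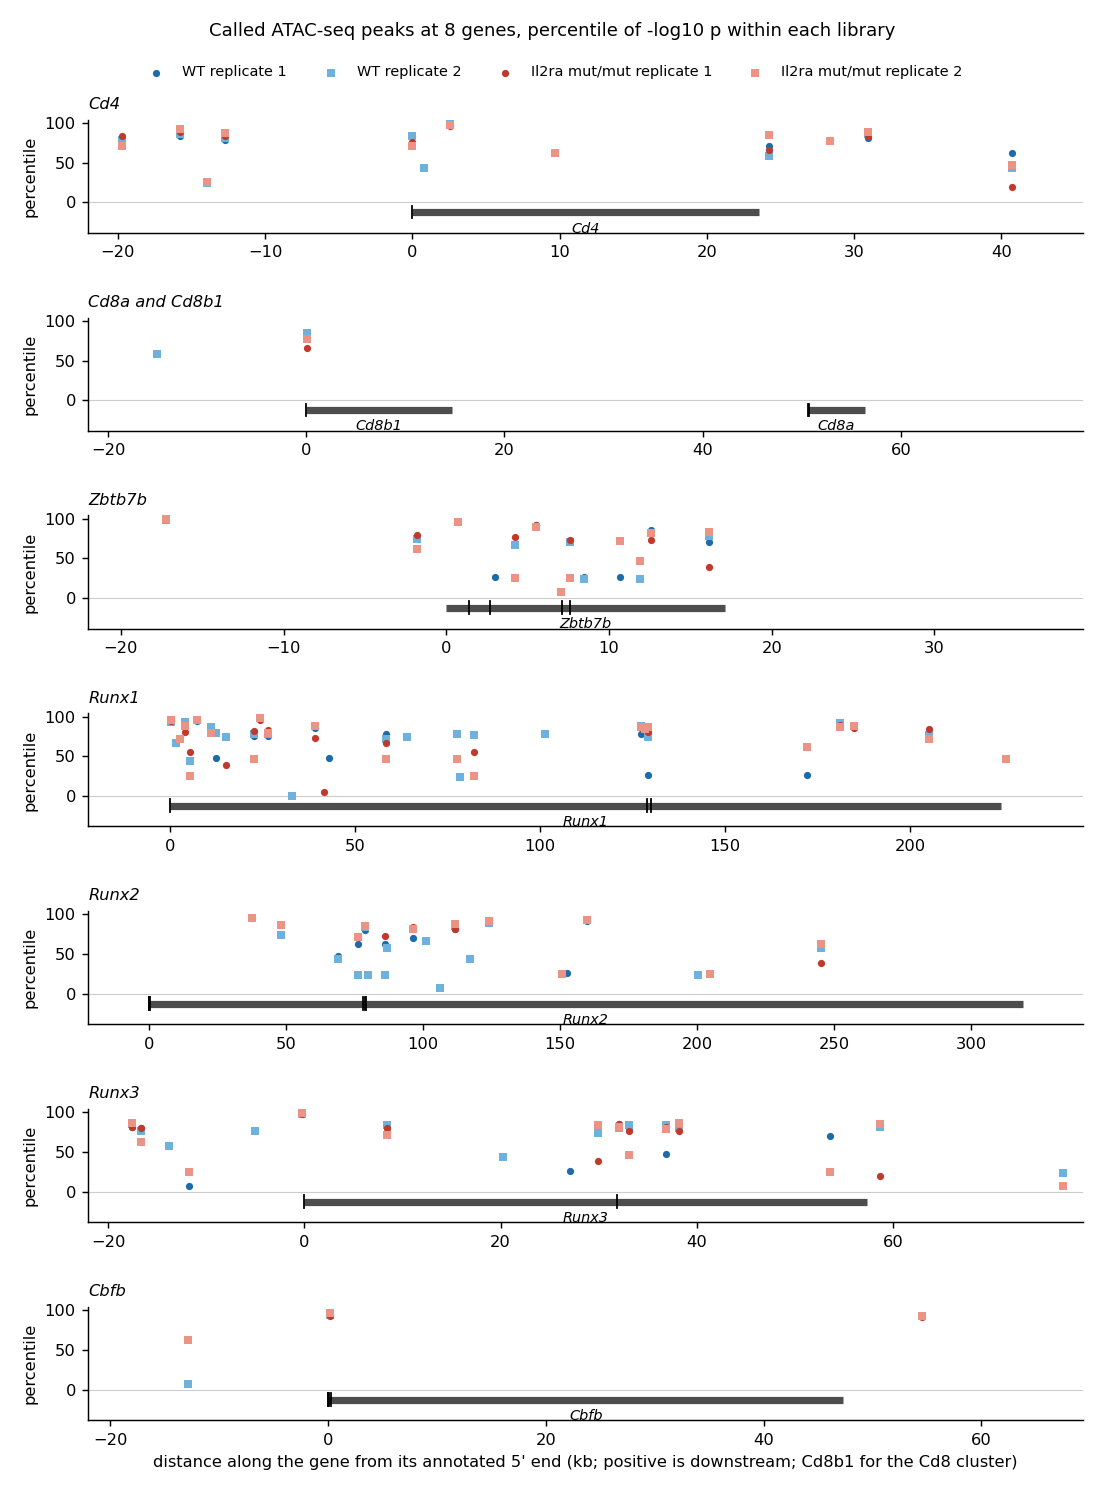
Every called peak region at the 8 genes, by its distance from the annotated 5′ end of the gene (x axis, kb, *Cd8b1* for the *Cd8* cluster) and its percentile of −log10 p within each library (y axis); bars below are gene bodies and ticks are transcription start sites of protein-coding transcripts. Regions crowd over *Zbtb7b* and the 5′ part of *Runx1*, whereas the stretch from *Cd8b1* to *Cd8a* shows none beyond the *Cd8b1* start. At *Cd4*, 3 of 12 regions have their summit in the gene and 1 covers its start. The other *Cd4* regions lie in the flanks.

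At *Cd4* the most accessible region lay inside the first intron and not at the promoter. Cd4 region 6 (chr6:124884937-124886413, intron 1 of a transcript with 10 exons) began 1.81 kb downstream of the transcription start site (TSS). Its summit reads numbered 63 and 97 in the WT libraries (replicate 1, then 2, here and below), against 66 and 62 in *Il2ra* mut/mut, at percentiles 97.4, 98.0, 96.4 and 96.8. Both WT percentiles were above both mutant ones. No coordinates of the *Cd4* silencer were used here, so its position within the intron relative to this region was not tested.

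The region over the *Cd4* TSS, Cd4 region 8 (chr6:124887871-124888661), was much weaker. It had 15 and 19 reads in WT against 13 and 10 in *Il2ra* mut/mut, at percentiles 83.2, 83.8, 76.4 and 71.4, so the genotypes did not overlap and WT was higher. Its mean percentile of 78.7 exceeded that of 8.33% of the 11315 protein-coding promoters called in all libraries. Upstream of the gene, Cd4 region 9 (midpoint 12.7 kb upstream, chr6:124900395-124901496) had 12 and 16 reads in WT and 18 and 18 in the mutant, and Cd4 region 11 (midpoint 15.8 kb upstream, chr6:124903522-124904467) 15 and 23 reads in WT and 25 and 30 in the mutant. In both of these the mutant percentiles were the higher, whereas fold enrichment overlapped between the genotypes. At region 9 it was 8.59 in WT replicate 2 against 8.52 in mutant replicate 1, and at region 11 it was 12.1 against 11.7. Region 9 was chosen for mention after its values were seen. These intergenic regions lie downstream of the start of *Lag3*, the neighbouring gene for a CD4-related inhibitory receptor. Cd4 region 2, at percentiles 80.3, 86.3, 83.0 and 88.2, lay in exon 1 of the neighbour *P3h3*.

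The CD8 coreceptor genes showed little called accessibility. The *Cd8b1* TSS was covered by a region (chr6:71322337-71323383) with 16 and 20 reads in WT against 11 and 11 in *Il2ra* mut/mut, at percentiles 84.2, 84.5, 66.2 and 76.5. Both WT libraries were above both mutant libraries, and the mean stood above 7.83% of called promoters. *Cd8a* had no called region in its own window of 45.7 kb in any library, and its nearest region called in all libraries was that at *Cd8b1*, 50.04 kb from its TSS. The lists hold only peaks past the caller's threshold, so signal below that threshold at *Cd8a* was not measured. The remaining region of the cluster was called in WT replicate 2 alone. The markers of CD8 T cells are these same coreceptor genes, and the cells were enriched for CD4+ T cells before the sort.

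*Zbtb7b* was accessible at its 5′ start and along its first intron. The region over its first TSS, Zbtb7b region 11 (chr3:89393081-89395068), had 45 and 59 reads in WT against 67 and 52 in *Il2ra* mut/mut, at percentiles 95.3, 95.2, 96.4 and 95.9. The mutant percentiles were above the WT ones by about 1 percentile, and the mean stood above 59.5% of called promoters. Fold enrichment overlapped, at 23.3 and 30.3 in WT against 30.5 and 25.8 in the mutant. Zbtb7b region 8 in intron 1 (chr3:89388754-89389741) was next within the gene, with 31 and 29 reads in WT and 39 and 23 in the mutant, and its percentiles of 92.2, 88.9, 92.5 and 89.7 overlapped. Zbtb7b region 2, farther along intron 1, ranked lower, at 86.0 and 82.1 in WT and 72.6 and 81.8 in the mutant. An internal TSS lay under Zbtb7b region 6, where the replicates differed more than the genotypes, at percentiles 26.6 and 71.3 in WT and 72.6 and 25.3 in the mutant. Another internal TSS had a peak of 6 reads in *Il2ra* mut/mut replicate 2 only, and the remaining internal TSS had none. The highest region of the whole set, Zbtb7b region 13 (percentiles 98.6, 98.5, 98.9 and 99.3), covered the TSS of the neighbour *Flad1*, an enzyme gene of flavin metabolism.

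**Figure D2:**
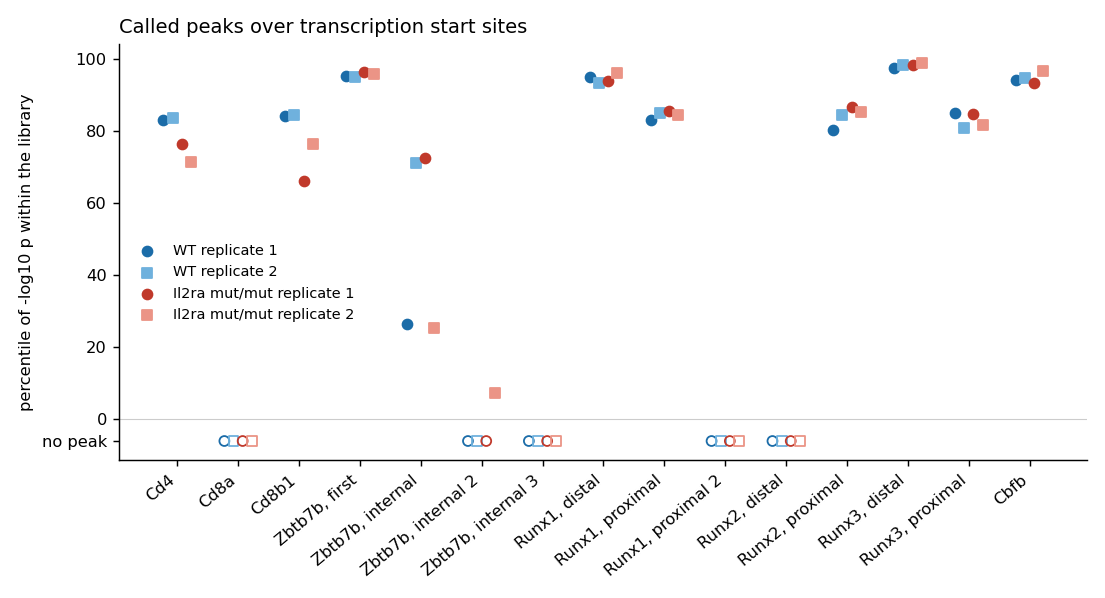
Percentile of −log10 p within the library (y axis) of the called peak over each group of transcription start sites (x axis), 1 symbol per library, with open symbols for libraries without a called peak. *Runx3* distal, at 97.4 to 99.0, is the highest; *Cd8a*, the distal starts of *Runx2* and 1 internal start each of *Zbtb7b* and *Runx1* have no peak in any library, and at *Cd4* and *Cd8b1* both WT symbols lie above both mutant symbols.

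The 3 RUNX genes differed in which promoter was accessible. At *Runx3*, the RUNX gene of the CD8 lineage, the distal TSS was the more accessible. Its region (chr4:135120121-135120777, with the tandem RUNX words above) had 64 and 109 reads in WT against 98 and 111 in *Il2ra* mut/mut, at percentiles 97.4, 98.5, 98.3 and 99.0. The genotypes overlapped, and the mean stood above 82.0% of called promoters. The proximal TSS (chr4:135152186-135153183) had 17 and 16 reads in WT and 19 and 13 in the mutant, at percentiles 85.1, 81.0, 84.8 and 81.8, again overlapping. The strongest *Runx3* regions away from a TSS were of modest rank. Region 1, 17.2 kb upstream of the distal TSS, stood at 81.9, 85.1, 81.9 and 86.3, and region 7 in intron 1 at 75.3, 84.5, 80.6 and 71.4. Region 2, 16.4 kb upstream, stood at 80.3, 76.7, 80.6 and 62.3. Each of these 3 windows held a STAT word, and their percentiles overlapped between the genotypes.

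At *Runx1* the distal TSS likewise ranked above the proximal one in every library. The distal region (chr16:92824750-92826690) had 44 and 47 reads in WT and 46 and 54 in the mutant, at percentiles 95.1, 93.4, 93.8 and 96.1. The proximal region (chr16:92697201-92698467) had 15 and 21 reads in WT and 20 and 15 in the mutant, at 83.2, 85.1, 85.6 and 84.5. In neither were the genotypes apart. A further TSS just downstream of the proximal one had no called region. The strongest *Runx1* region was intronic: region 20 (chr16:92801181-92802164, intron 2 of the transcript with 8 exons), 24.0 kb downstream of the distal TSS, had 56 and 91 reads in WT and 64 and 78 in the mutant, at 96.7, 97.7, 96.2 and 97.9. Region 25 in the same intron followed, at 94.8, 95.5, 95.3 and 95.3.

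*Runx2*, best known as the bone factor, showed the opposite arrangement. Its proximal TSSs shared 1 region (chr17:44735207-44736815) with 13 and 20 reads in WT against 22 and 16 in *Il2ra* mut/mut, at percentiles 80.3, 84.5, 86.8 and 85.4. Both mutant percentiles exceeded both WT ones, and the mean stood above 13.6% of called promoters. Fold enrichment overlapped, at 7.09 and 10.6 in WT against 10.3 and 8.26 in the mutant. None of its 4 distal TSSs had a called region, and the nearest was 36.4 kb away. That nearest region, Runx2 region 20 (95.1, 95.5, 95.2 and 96.2), lies in intron 2 of *Runx2* and covers the TSS of the overlapping gene *Supt3*. Within the gene, Runx2 region 4 in intron 6 reached 91.5, 92.6, 92.9 and 93.3. Runx2 region 7 in intron 5 had 24 and 32 reads in WT against 41 and 31 in the mutant, at 89.6, 89.9, 92.9 and 92.3, and its window held a RUNX word. At both of these intronic regions the mutant percentiles were above the WT ones, whereas fold enrichment overlapped between the genotypes.

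*Cbfb* showed a strong promoter and little else. Its TSS region (chr8:105169891-105171914) had 40 and 55 reads in WT and 43 and 61 in the mutant, at percentiles 94.4, 94.7, 93.3 and 96.7, and the mean stood above 53.3% of called promoters. The genotypes overlapped. Its other region called in all libraries (92.5, 93.0, 91.8 and 93.3) covered the TSS of the neighbour *D230025D16Rik*. No region called in all libraries had its summit inside the *Cbfb* gene outside the promoter.

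The genotypes were then compared at the 50 regions called in all libraries, by limma on quantile-normalised log2 fold enrichment at the summit fitted across all 38426 such regions, with Benjamini-Hochberg adjustment. No member region passed an adjusted p of 0.05, and neither did any region of the data set (0%). The lowest adjusted p among the members was 0.549, the same as over all regions. At an unadjusted p under 0.05 stood 6 of the 50 members (12%) against 3378 of all regions (8.79%), 4 lower in *Il2ra* mut/mut (8% against 4.51%) and 2 higher (4% against 4.28%). The count of members fell to 2 without WT replicate 1 and to 2 without WT replicate 2. The median difference, mutant minus WT, was −0.05 over the members and 0.00 over all regions, and 23 of 50 were above 0. The median standard error of a member was 0.23 on this log2 scale, and the median 95% interval reached 0.59 to either side.

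The lowest unadjusted p belonged to Runx1 region 27 (chr16:92821529-92822428, intron 2), 3.72 kb downstream of the distal TSS. It had 38 and 49 summit reads in WT against 15 and 21 in *Il2ra* mut/mut, at percentiles 94.0, 93.7, 80.6 and 88.8. Both WT libraries were well above both mutant libraries. The fitted difference in log2 fold enrichment was −1.29 (SE 0.25, 95% interval −1.91 to −0.66, limma adjusted p = 0.549, n = 2 per genotype). Its summit window holds 1 RUNX word and 1 STAT word. The 4 libraries allow no exact permutation p below 0.333.

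The *Cd8b1* start region had a difference of −0.71 (SE 0.18, 95% interval −1.16 to −0.26, limma adjusted p = 0.549), and the *Cd4* start region one of −0.57 (SE 0.19, 95% interval −1.05 to −0.09, limma adjusted p = 0.549). Thus both coreceptor promoters with a called peak had lower fitted values in the mutant, without passing the test. At Cd4 region 6 the difference was −0.38 (95% interval −0.81 to 0.05). Runx3 region 12, 0.838 kb downstream of the proximal TSS, had 13 and 19 reads in WT and 13 and 8 in the mutant and a difference of −0.62 (SE 0.25, limma adjusted p = 0.567).

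Among the members higher in the mutant, Runx1 region 6 beside the proximal TSS had 7 and 12 reads in WT and 15 and 18 in the mutant, a difference of 0.75 (SE 0.26, limma adjusted p = 0.549); it was chosen for mention after its values were seen. Cd4 region 11 had a difference of 0.50 (SE 0.20, limma adjusted p = 0.567). The lowest adjusted p at the other loci was 0.604 at Zbtb7b region 2 (−0.51), 0.676 at Runx2 region 7 (0.30) and 0.811 at the *D230025D16Rik* start beside *Cbfb* (−0.15). Differences at the *Zbtb7b* first TSS (0.10, 95% interval −0.38 to 0.58), the *Runx3* distal TSS (0.20, −0.30 to 0.70), the *Runx1* distal TSS (0.06, −0.53 to 0.65) and the *Cbfb* TSS (0.04, −0.56 to 0.65) had intervals on both sides of 0. These intervals leave room for changes in either direction.

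**Figure D3:**
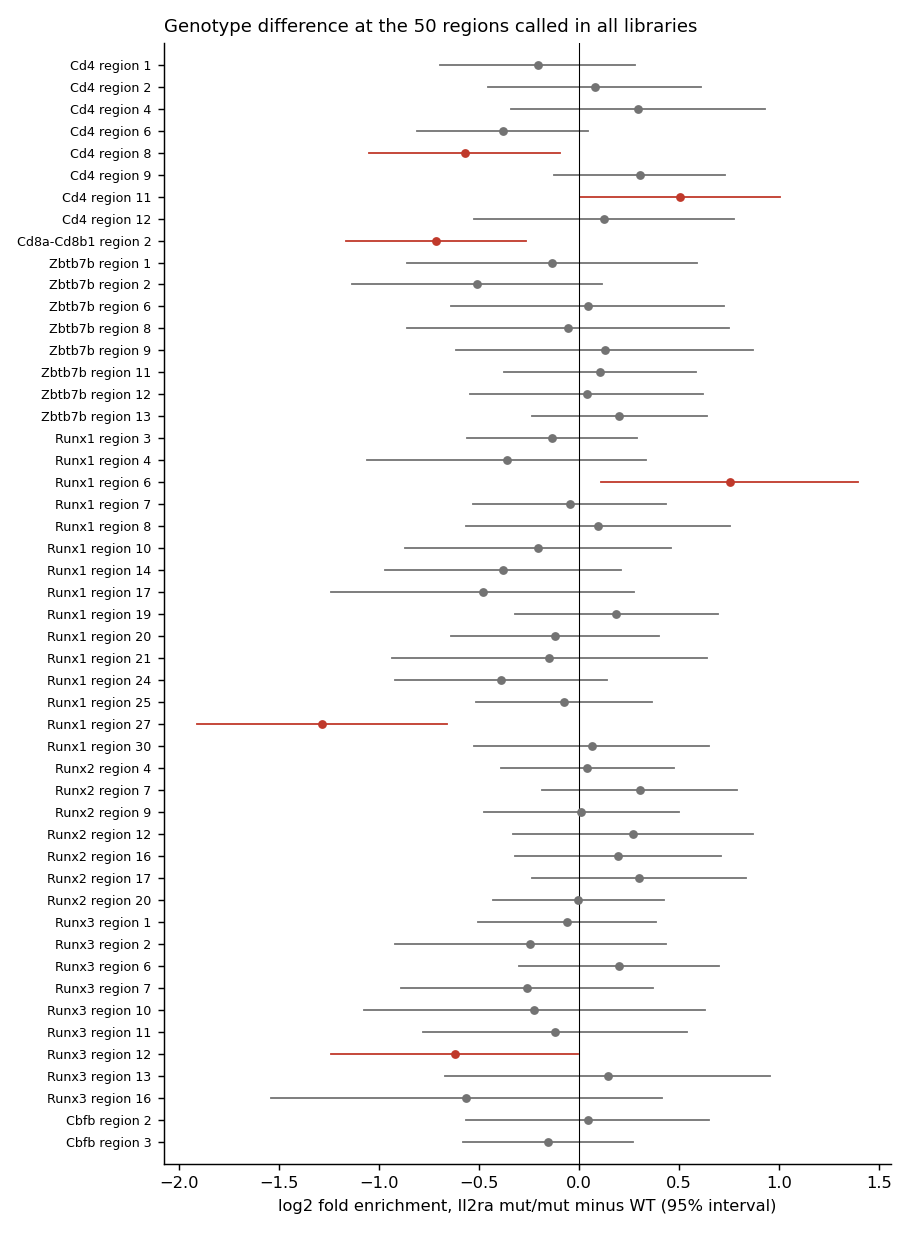
Difference in log2 fold enrichment between *Il2ra* mut/mut and WT (x axis) at the 50 regions called in all 4 libraries (y axis), as point and 95% interval from limma. Red marks the 6 regions at an unadjusted p under 0.05; none passed after adjustment, and Runx1 region 27 at −1.29 lies farthest from 0.

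**Figure D4:**
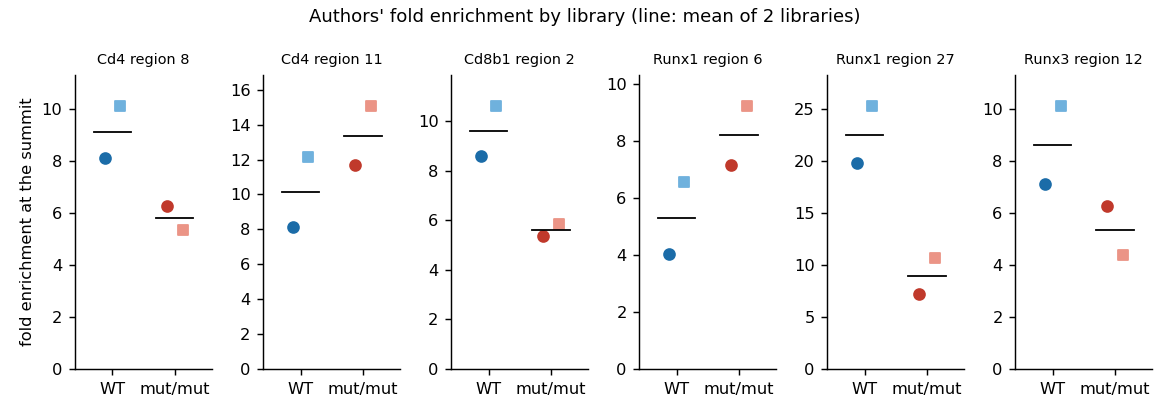
Fold enrichment at the summit as given by the authors (y axis, from 0), 1 symbol per library (circle, replicate 1; square, replicate 2; blue, WT; red, *Il2ra* mut/mut), at the 6 regions at an unadjusted p under 0.05; lines are means of 2 libraries. At Runx1 region 27 the WT values are 19.8 and 25.3 and the mutant values 7.18 and 10.7.

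Percentiles of the genotypes did not overlap at 17 of the 50 regions. WT was the higher at 7 (14%, against 12.6% of all regions) and *Il2ra* mut/mut at 10 (20%, against 26.2%), which are near the shares over all regions. *Runx2* had 4 of its 7 regions with the mutant higher and none with WT higher. Of these, fold enrichment overlapped between the genotypes at Runx2 regions 4 and 7 and at the proximal start region, and was apart only at Runx2 region 17. No *Runx2* region stood at an unadjusted limma p under 0.05. *Cd4* had 2 in each direction, and *Runx3* had 1 with WT higher among 9.

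Few regions were called in 1 genotype alone. Only 3 were called in both WT libraries and in neither mutant library (3.09%, against 2.7% of all regions), and 1 in both mutant libraries alone (1.03%, against 3.56%). The WT-only regions lay in introns: Zbtb7b region 5 had 7 and 7 reads, Runx2 region 18 had 8 and 8, and Runx1 region 23 had 8 and 15, at percentiles 47.8 and 79.9. The mutant-only region, Runx1 region 28 in intron 2, had 12 and 10 reads, at percentiles 72.6 and 71.4, and lay 2.39 kb downstream of the distal TSS. The weakest peaks in the lists rest on 5 or 6 reads.

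The letters around the summits were searched for words of the factors concerned. The RUNX core word TGTGGT, on either strand, occurred in 13 of 50 member windows (26%) against 25.2% of all 38281 windows, and the longer word TGTGGTTT, which contains it, in 4 (8%) against 4.53%. By locus, the core word was found in 7 of 15 windows at *Runx1*, 3 of 9 at *Runx3*, 2 of 7 at *Runx2* and 1 of 8 at *Cd4*, and in none of 8 at *Zbtb7b*, none of 1 at *Cd8b1* and none of 2 at *Cbfb*. The STAT word TTCNNNGAA, the letters bound by STAT5 downstream of IL-2, occurred in 8 windows (16%) against 8.78%. All 8 lay away from member TSSs, as did 40 of the 50 windows, so no preference for distal sites is read from this. The ETS word CCGGAAG was found in 3 (6%, against 8.59%) and the GATA word AGATAA in 5 (10%, against 11.4%). A match is a run of letters and not a bound site, and no match says only that these letters are not in the window.

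Genes that work with these factors, a list of 18 such as *Gata3*, *Tox*, *Tcf7*, *Bcl11b* and the corepressor *Tle3*, all had a promoter region in all 4 libraries, as did 51.6% of 21911 protein-coding genes. Their median percentile of 94.6 was close to the 94.3 over all promoters called in all libraries. None of their 159 regions passed the limma test after adjustment, and 17 stood at an unadjusted p under 0.05 (10.7%, against 8.79% of all regions), 13 lower (8.18%, against 4.51%) and 4 higher (2.52%, against 4.28%) in *Il2ra* mut/mut. Nothing particular to the list is read from these shares. Of 10 genes of the cytotoxic programme of CD8 T cells, 2 (*Prf1*, the pore protein perforin, and the surface receptor gene *Cd160*) had a promoter region in all libraries (20%, against 51.6% of coding genes) and 4 in none (40%, against 35.8%), among them *Nkg7* and *Ccl5*. None of their 16 regions passed, and 1 stood at an unadjusted p under 0.05 (6.25%, against 8.79% of all regions), lower in the mutant.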

How the data were processed

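ATAC-seq libraries of LN Treg cells, 2 per genotype, were analysed. The authors trimmed, aligned to mm10, removed duplicated and mitochondrial reads, shifted reads and called narrow peaks per library, and the submitters' notes name Trim Galore 0.3.7, BWA 0.7.13, SAMtools 0.1.19, Picard 1.92 and MACS2 2.1.0. The deposited lists give, per peak, a score, the fold enrichment ratio at the summit over background, −log10 p, −log10 q, and the summit offset. Depth is unknown. Summit reads were recovered from the fold enrichment by solving for 1 constant background per library (0.974, 0.979, 1.23 and 1.06 reads), with 1 read added to both terms. They were counted as whole within 0.001 reads per unit of fold enrichment.

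Regions, percentiles and motif windows were computed in Python 3.11.15 (numpy 2.4.6, pandas 2.3.3, scipy 1.17.1) and figures with matplotlib 3.10.9. For each region and library the highest peak was used. Log2 fold enrichment was quantile-normalised and fitted in limma 3.58.1 (R 4.3.3), on regions called in all 4 libraries. The steps were tested on simulated data. The two-sided p-values tested the mutant minus WT difference, with Benjamini-Hochberg adjustment and a threshold of 0.05. Their error term combined the spread between replicate libraries at the region with a spread shared over all regions tested. Promoter regions lay within 1 kb of a TSS. Libraries with the same replicate number showed no common shift (correlation of deviations 0.011). The sample titles do not say whether libraries were prepared in pairs.

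The named regions are those over a member TSS, the 3 highest others per locus, the lowest p per locus and the highest called in 1 genotype only. Members and lists were chosen with earlier results of these data known. Alternatives were other scalings, percentiles, a −log10 q of at least 3, 50% overlap, equal peak numbers, windows of 5 and 50 kb, a replicate block and leaving out each library.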

Additional observations from a re-analysis of the deposited data

How the results depend on the processing

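The 9 differences at named regions kept their direction in 89 of 89 recalculations and none passed the threshold, with a lowest adjusted p of 0.163 and a range of −1.57 to −0.98 at Runx1 region 27. Without scaling, 18 of all regions passed (none of them a member), and the median difference over all regions was then −0.04; every other setting of the limma fit gave 0, the replicate block included. The sample titles do not say whether libraries with the same replicate number were prepared together, so the block is given only as a check. With windows of 50 kb the regions called only in the mutant numbered 3 and those without overlap between genotypes 28. Leaving out 1 library in turn gave 4 to 20 regions called only in WT (20 without WT replicate 1, 9 without WT replicate 2, 5 without mutant replicate 1), 1 to 8 called only in the mutant (8 without WT replicate 2, 6 without mutant replicate 1, 2 without mutant replicate 2), 29 to 40 without overlap (the highest without mutant replicate 1), 50 to 56 called in all libraries and 0 to 0 past the threshold; with 1 library in an arm fewer libraries had to share a call, and in the fit that library is assumed to vary like the others. Members at an unadjusted p under 0.05 (6 as reported) numbered 2 to 6 when 1 library was left out, 1 with the logit of the percentile, 3 without scaling and 4 or 5 under the other settings. Peak lists hold no depth, and weak regions rest on 5 to 10 reads.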
